A study of Mus musculus with 12 samples.

Results

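The comparison set mouse blood progenitors that carried the INV16 fusion against progenitors that carried the empty MIB vector, across the whole expression array. It used 8 of the 12 arrays of the series: 3 INV16 arrays (replicates 1 to 3) and 5 MIB control arrays (replicates 3 to 7), taken by their titles. A further INV16 array (replicate 4) is shown apart and enters no average or test of the main comparison, because its profile differed from all others. Its Xist, Y-linked and mast cell values, given further on, also set it apart, so that it may be another sample than its label says, which was not tested. Both groups came from normal mouse bone marrow sorted as lineage-negative, c-Kit+, Sca-1+ and Flt3-negative, called KLSF in the sample titles and KSLF in the design text. The sorted cells were grown for 24 h in DMEM with 10% serum, SCF at 50 ng/ml and IL-6 at 5 ng/ml, met retroviral supernatant with polybrene for 4 h, and stayed in fresh medium for 20 h. GFP-positive cells were then sorted for RNA, so that every array reports cells that took up a virus, early after its delivery. By the labels the groups differed in the virus alone: MIB is the vector without insert, INV16 is the leukaemia fusion. The 3 arrays of the ACD mutant of INV16, which lacks the assembly competent domain and is described by the submitters as non-leukemogenic, helped to estimate the spread of each gene and to choose the probe sets tested, and enter no difference between groups. Per the design text each replicate was its own sort, transduction and analysis, and the p-values rest on the spread from one of these to the next. The labels used here give no age, sex or strain of the mice.

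INV16 stands for an inversion of chromosome 16 in acute myeloid leukaemia that joins CBFB to MYH11, the gene of smooth muscle myosin heavy chain. CBFB is the subunit of the core binding factor that does not touch DNA. It binds RUNX1, RUNX2 or RUNX3, the DNA-binding subunits, and strengthens their hold on a short core sequence in enhancers and promoters. The fusion protein keeps the RUNX-binding part of CBFB, and its myosin tail assembles into multimers and recruits co-repressors. RUNX1 is required for the emergence of blood stem cells and for the maturation of platelets, granulocytes and lymphocytes, and mice that express the fusion show a block of these steps before leukaemia develops. The retrovirus adds the fusion to normal cells that keep their own Cbfb genes, unlike the leukaemia, in which the inversion takes 1 of them.

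The array values are log2 intensities of probe sets. The medians of the 8 arrays lay between 5.62 and 5.72. Any pair of them correlated at 0.986 to 0.995 over the probe sets, which do not vary independently. INV16 replicate 4 correlated with them at 0.895 to 0.915. Of the markers of the sort, Kit was high on the 8 arrays, at 10.26 to 11.43, while the 6 measured markers of mature lineages (Cd3e, Cd4, Cd8a, Cd79a, Itgam and Adgre1) averaged 5.87 to 6.27. The single values of these 6 ran from 4.11 for Itgam to 7.24 for Cd8a. Cd3e, Cd4, Cd8a and Adgre1 lay above the array medians. Flt3, whose protein was sorted against, was well above the array medians in its RNA, at 8.03 to 9.76. This RNA was taken after the culture, so it cannot check the Flt3-negative label, which describes protein at the first sort. Cd34 and Myb, progenitor genes outside the sort, measured 11.47 to 12.35 and 12.36 to 12.83, while Slamf1 of the same marker set measured 5.27 to 7.0. Gapdh, whose 3' probe set exceeds its 5' probe set more in degraded RNA, had a difference between these of 1.10 to 1.53 in INV16 and 1.34 to 1.76 in MIB control. In the ACD mutant it was 3.17, 1.98 and 1.63, and on INV16 replicate 4 it was 3.64. The arrays split by a spike-in control: BioC minus BioB was 1.07 to 1.21 in INV16 replicates 1 to 3 and MIB control replicates 3 to 5, and -0.11 to -0.07 in MIB control replicates 6 and 7. The labels do not say what this split stands for. In such bulk RNA a lower value can reflect fewer cells of a type or less RNA per cell, and these cannot be told apart.

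INV16 cells differed from control cells in a small set of genes, more often downward. Of 12897 genes tested, limma called 211 at an adjusted p under 0.05, which is 1.64% of those tested. There were 75 genes higher in INV16 (0.582% of those tested) and 136 lower (1.05%). Most changes were moderate, with a median log2 fold change of 0.87 among the higher genes and -0.73 among the lower ones, and 48 genes passed 1 log2 unit, 23 up and 25 down. In 207 of the 211, every INV16 array lay outside the range of the 5 control arrays. Such separation was found in 9.23% of all genes tested (1190 genes). At an unadjusted p under 0.05 there were 2027 genes. The median log2 fold change of all genes was -0.03, and quantile normalisation moved it to -0.01 and the split to 100 higher and 114 lower, or 46.7% higher against 35.5% in the values as deposited. The 8 arrays of the groups compared, fitted without the ACD mutant, gave 93 calls, 27 higher and 66 lower. The count also rested on single arrays. It was 27 when INV16 replicate 1 was left out, 66 for INV16 replicate 2, 110 for MIB control replicate 5 and 326 for MIB control replicate 4. The genes higher in INV16 were 131 without INV16 replicate 3 and 133 when MIB control replicate 3 was omitted, and those lower were 88 when MIB control replicate 6 was.

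**Figure D1:**
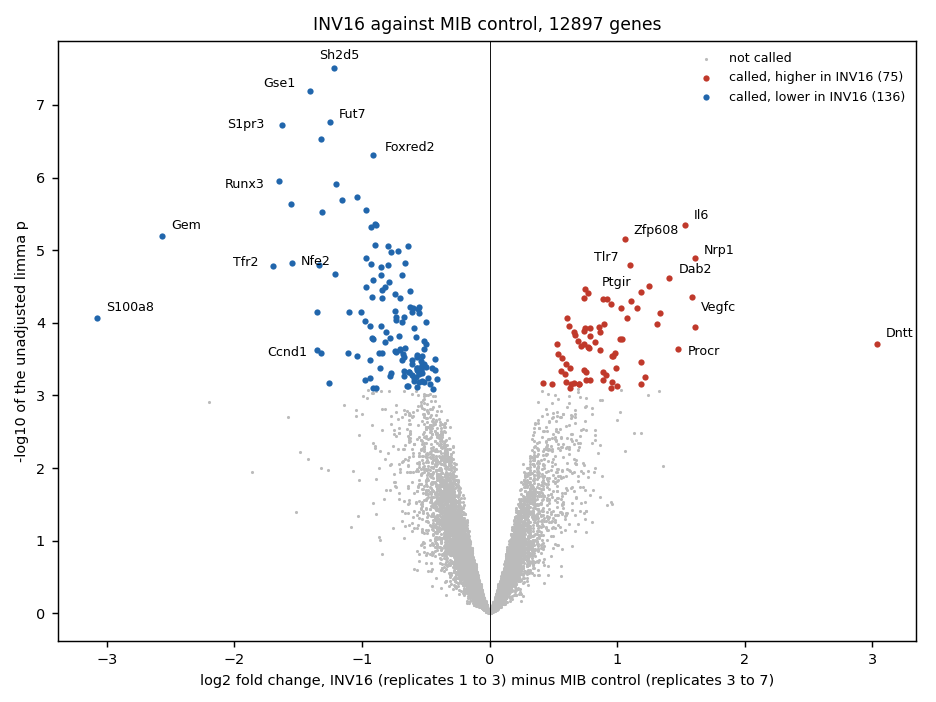
Each point is 1 of 12897 genes; the x axis is the log2 fold change of INV16 (replicates 1 to 3) over MIB control (replicates 3 to 7) and the y axis the -log10 of the unadjusted limma p. The 75 called genes that were higher are red and the 136 lower ones blue; Dntt at 3.04 and S100a8 at -3.08 lie farthest out, and Sh2d5, Gse1, Fut7 and S1pr3 have the smallest p-values.

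In a fit to the 6 arrays with the higher spike-in difference, INV16 replicates 1 to 3 and MIB control replicates 3 to 5, limma called 30 genes (0.233% of those tested), 7 higher and 23 lower, and 29 of them were among the 211. All 211 genes kept their direction there, and all 211 had an unadjusted p under 0.05. All 6 arrays also belong to the main fit that picked the 211 genes, so this agreement is no separate evidence. With the spike-in split as a term in the 11-array fit, 129 genes were called (1.00% of those tested), 45 higher and 84 lower, and 103 were among the 211. Since INV16 replicates 1 to 3 lie on 1 side of the split and the ACD mutant on the other, that fit compares INV16 with MIB control replicates 3 to 5 and takes the spread from 11 arrays. MIB control replicates 6 and 7 differed from replicates 3 to 5 by a median of 0.16 log2 in either direction over the 211 genes, against 0.17 over all genes, and in 22 of the 211 by more than 0.5 of the INV16 difference. The call held in these 3 fits, that of 11 arrays, that of 6 arrays and that with the spike-in term, for 27 genes, 5 higher (Il6, Nrp1, F13a1, Cep135 and S1pr1) and 22 lower. The 22 were Runx3, Tle3, Gse1, Med7, Nfe2, Fut7, Fut8, Chsy1, S1pr3, Gem, Chn2, Bcl2, Sh2d5, Spns3, Btnl9, Foxred2, Rffl, Acot11, Pigl, Ccrl2, Bex6 and Gm3924. Of the 27, 24 were also called in the fit to 8 arrays (all but F13a1, Bcl2 and Bex6), 15 in every fit without 1 array and 9 with INV16 replicate 4 included.

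**Figure D2:**
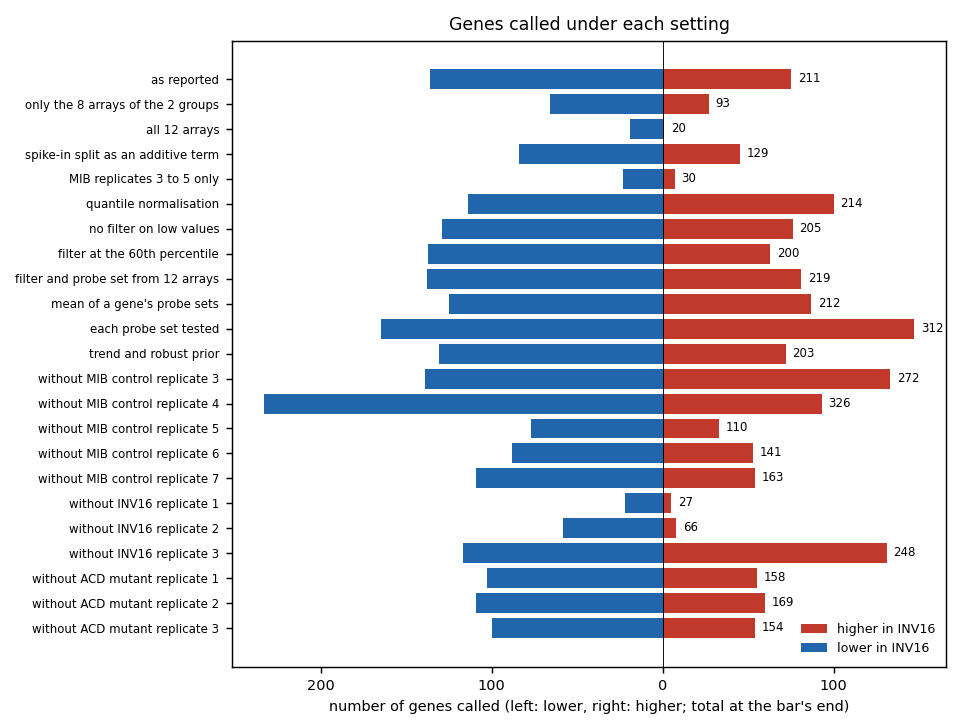
Number of genes called higher (red, right) and lower (blue, left) in INV16 under each setting, with the total beside each bar. The total of 211 as reported fell to 27 without INV16 replicate 1 and to 20 with INV16 replicate 4 included; a fit with array weights, which called 1625 genes, is not drawn.

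In 24 genes the call held in the full fit and in each of 11 fits without 1 array. Of these 3 were higher, Il6, Dab2 and Zfp608, and 21 were lower. Gramd4, Pdxp, Grk3 and Dab2ip are among the 21 and were singled out by this count, after their values were seen. Dab2ip, which encodes a RAS GTPase-activating protein, measured 6.88, 7.09, 6.97, 7.17 and 7.09 in control and 6.25, 5.95 and 6.36 in INV16. Grk3, a kinase that switches off G protein coupled receptors, measured 8.01, 8.19, 7.98, 7.81 and 7.99 in control and 7.38, 7.38 and 7.27 in INV16. Every INV16 value of both lay below every control value. The falls were 0.85 log2 (SE 0.13, adjusted p = 0.00655) for Dab2ip and 0.66 (SE 0.10, adjusted p = 0.00647) for Grk3. A second Dab2ip probe set differed by -0.05, and 2 other Grk3 sets by -0.38 and -0.36. Against MIB control replicates 3 to 5 neither gene passed (adjusted p = 0.0667 for Dab2ip and 0.0545 for Grk3). Neither passed with the mean of its probe sets (adjusted p = 0.0997 and 0.183).

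**Figure D3:**
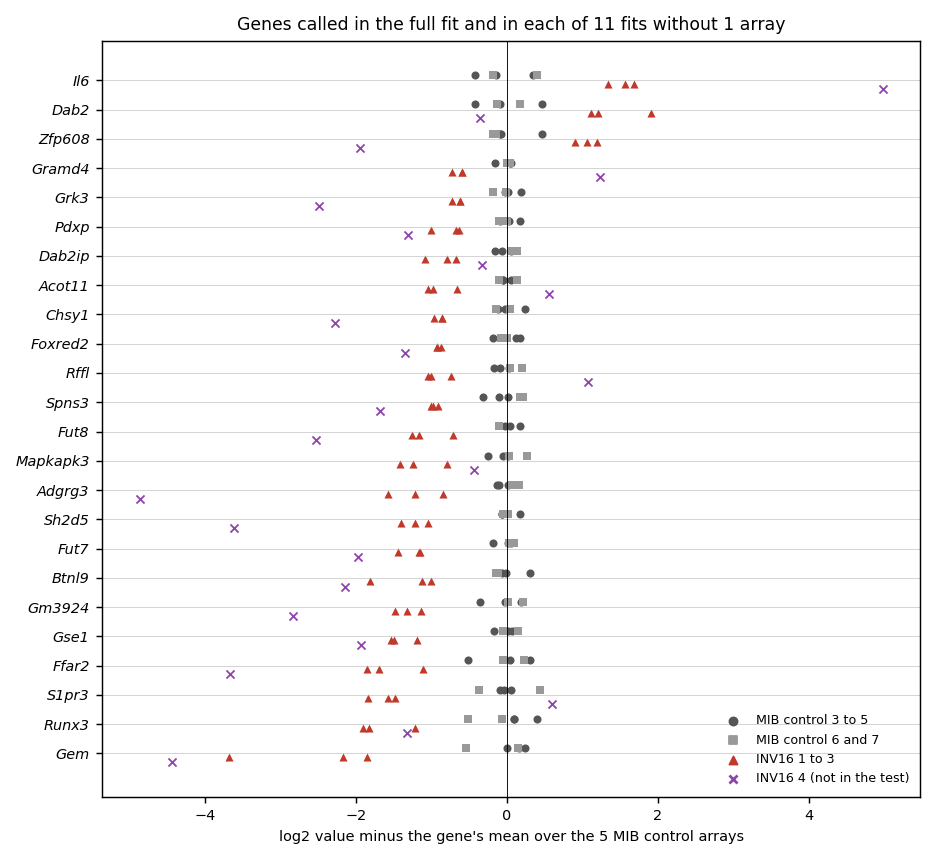
The 24 genes called in the full fit and in every fit without 1 array; the x axis is the log2 value minus the gene's mean over the 5 MIB control arrays, circles and squares are control arrays, triangles INV16 replicates 1 to 3, and crosses INV16 replicate 4, which entered none of these fits. The INV16 triangles lie apart from the controls in each row, while the crosses lie on either side.

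On the array labelled INV16 replicate 4 values lay on both sides of the controls. It lay below all 5 control arrays in 100 of the 136 lower genes (73.5%), where it did so in 43.4% of all genes tested, and above all 5 in 22. Of the 75 higher genes it lay above all 5 in 26 (34.7%, against 38.4% of all genes) and below all 5 in 34. Its mast cell markers averaged 11.85 over 7 genes, against 6.27 to 7.16 in control and 6.59 to 6.74 in the other INV16 arrays. Xist measured 12.68 there and the Y-linked Eif2s3y 3.57, against 6.02 to 6.48 and 10.07 to 10.78 on the 8 arrays. The part of these differences in its values for the genes below was not tested.

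**Figure D4:**
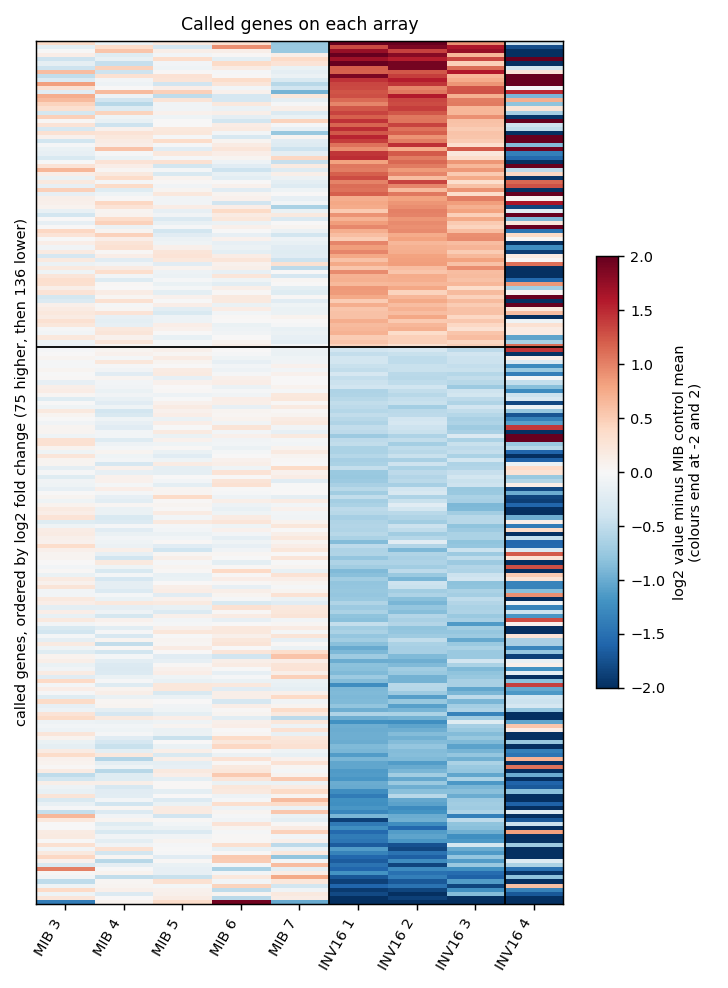
Rows are the 211 called genes ordered by log2 fold change, columns are the arrays, and colour is the log2 value minus the mean of the 5 MIB control arrays, with colours ending at -2 and 2. INV16 replicates 1 to 3 lie on the same side of all controls in 207 of the 211 rows, though not always equally far, as for Dntt (11.09, 10.81 and 7.75), and INV16 replicate 4, shown apart, holds both colours in both.

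Among the partners of core binding factor, RNA of 1 RUNX gene and of the Groucho co-repressors moved. Of 13 genes tested in the list of the complex and its co-repressors, 1 rose (Tle1) and 2 fell (Runx3 and Tle3), and the median of the list was -0.05 against -0.03 over all genes. This and the later counts of lists stand against 1.64% called over all genes tested, 0.582% higher and 1.05% lower. Over the 44 lists of genes by role together, 69 of 1285 genes tested were called. All lists were written with earlier results of these data known, so their counts describe these arrays and are no independent evidence. Below, values run from replicate 3 to 7 for MIB control, called control, and from replicate 1 to 3 for INV16. Runx3, a DNA-binding partner of CBFB, measured 10.59, 10.29, 10.28, 9.68 and 10.12 in control and 8.28, 8.36 and 8.97 in INV16. The lowest control array lay 0.71 above the highest INV16 array. The fall was 3.15-fold (log2 difference -1.65, SE 0.19, adjusted p = 0.002) and was -1.85 against MIB control replicates 3 to 5 alone. A second Runx3 probe set, at 5.82 to 6.54 in control, differed by -0.16. On the array labelled INV16 replicate 4 Runx3 measured 8.86, below every control array, as were 43.4% of all genes there.

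Tle3 and Tle1 encode Groucho proteins, which RUNX factors recruit to repress their targets. Tle3 measured 8.79, 8.81, 8.75, 8.89 and 9.20 in control and 7.90, 7.91 and 8.14 in INV16, a fall of 0.90 log2 (SE 0.13, adjusted p = 0.00519). Tle1 went the other way and measured 8.86, 7.86, 8.35, 8.63 and 8.39 in control and 9.39, 9.72 and 9.46 in INV16. It was 2.15-fold higher (log2 fold change 1.11, SE 0.19, adjusted p = 0.0114), and control replicate 3 came nearest to the INV16 arrays. The other probe sets of both genes moved in the same direction, by -0.64 and -0.38 for Tle3 and by 0.50 for Tle1. The adjusted p of Tle3 was 0.05 without INV16 replicate 1, and Tle1 lost its call without INV16 replicate 1 or 2, at up to 0.0646. The genes at the root of the fusion did not pass. Cbfb measured 12.71, 12.47, 12.41, 12.18 and 12.33 in control and 12.39, 12.50 and 12.22 in INV16, a difference of -0.05 (95% interval -0.30 to 0.21). Runx1 measured 10.29, 8.30, 8.91, 9.65 and 9.99 in control and 9.59, 10.05 and 9.54 in INV16, with a difference of 0.30 (95% interval -0.46 to 1.06), and its 5 other probe sets differed by -0.04 to 0.65. The 2 Myh11 probe sets lay at 3.85 to 4.68 on the 8 arrays, below the limit for testing, and were no higher in INV16. The sources used here do not say which part of each transcript these probe sets cover or whether they can bind the RNA of the fusion, so they are no check of the labels.

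RUNX proteins bind a core of the letters TGTGGT or TGCGGT, on either strand, and the promoter of Runx3 is shown because its RNA fell and its sequence holds that core. The window is the first of 2 in the RefSeq table (build GRCm38.p6), spans the start site over 300 bases on the + strand, at chr4:135120395-135120694, and is printed with the core, read on the opposite strand, in capitals.
Runx3: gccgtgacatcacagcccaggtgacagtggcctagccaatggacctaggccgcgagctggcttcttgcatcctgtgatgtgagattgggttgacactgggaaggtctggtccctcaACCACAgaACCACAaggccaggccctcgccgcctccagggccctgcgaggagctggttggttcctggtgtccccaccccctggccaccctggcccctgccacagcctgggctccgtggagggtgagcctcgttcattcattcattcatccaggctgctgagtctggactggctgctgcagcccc
The matches begin 134 and 126 bases before the start site. The second Runx3 window holds 0 such cores. Of 13269 promoter windows of the genes tested, 21.3% held at least 1 such core, so that a match is common. The share was 20.8% of 159 windows of the genes called lower and 17.1% of 82 windows of those called higher. It was 16.2% of 37 windows of the 27 genes called in all 3 fits. A match is a description of the letters and says nothing about binding.

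The other motifs searched, again on both strands, were the GATA core (AGATAA or TGATAA), the ETS core CCGGAA and the E-box CAGCTG. No motif of these contains another. GATA cores stood in 10.7% of the windows of lower genes and 19.5% of those of higher genes, against 10.8% of all windows of genes tested. ETS cores stood in 17.6% and 14.6%, against 25.5%, and the E-box in 23.3% and 24.4%, against 15.6%. These shares rest on 110 lower and 58 higher genes with a window in the table, whose median GC content was 61.0% and 61.8%, against 60% for all genes tested. No test was made on them.

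Transcription factors that instruct blood lineages moved in both directions. Of 51 tested in this list 3 rose (Gata3, Klf3 and Tcf4) and 2 fell (Nfe2 and Cebpa), or 9.80% of the list, and the median was -0.02. Nfe2, the erythroid and platelet factor that drives globin and platelet release genes, measured 10.66, 10.21, 10.26, 10.92 and 11.47 in control and 9.02, 9.34 and 9.10 in INV16. The fall was 2.93-fold (log2 difference -1.55, SE 0.23, adjusted p = 0.00647). MIB control replicates 6 and 7 were the highest arrays, and against replicates 3 to 5 alone the fall was 1.22 log2. Cebpa, the master factor of granulocytes, measured 9.52, 9.22, 9.01, 9.84 and 9.68 in control and 8.47, 8.49 and 8.69 in INV16. It fell by 0.91 log2 (SE 0.21, adjusted p = 0.049), a call at the edge of the threshold that held in 3 of 11 fits without 1 array and was lost against MIB control replicates 3 to 5 (-0.70, adjusted p = 0.11).

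Gata3, a factor of T cells that long-term stem cells also express, measured 5.16, 5.29, 5.06, 4.76 and 5.14 in control and 6.61, 5.98 and 5.63 in INV16. Values were low in both groups, the 3 INV16 arrays were above all controls, and the rise was 0.99 log2 (SE 0.21, adjusted p = 0.0348). Klf3, a repressor of the Kruppel-like family, measured 7.89, 8.43, 7.98, 8.14 and 7.80 in control and 9.16, 9.02 and 8.64 in INV16. Its rise was 0.89 (SE 0.15, adjusted p = 0.0108), and its 5 other probe sets differed by 0.11 to 0.80. Tcf4, the E protein of plasmacytoid dendritic cells, rose by 0.75 (SE 0.14, adjusted p = 0.017), with 4 other probe sets at 0.66 to 1.05. Tcf4 was at 4.28 on INV16 replicate 4, against 9.50 to 9.93 in control and 10.28 to 10.64 in the other INV16 arrays. Hlx and Bcl6, named after their values were seen, also rose, by 0.79 (adjusted p = 0.017) and 0.69 (adjusted p = 0.0219). Without INV16 replicate 1 or 2 the calls of Klf3 and Tcf4 were lost, that of Gata3 held in 5 of 11 fits, and that of Nfe2 was lost without replicate 1 at adjusted p = 0.0601. Hlx lost its call without INV16 replicate 2. Bcl6 lost it without MIB control replicate 5 or either of INV16 replicates 1 and 2.

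Of 28 erythroid genes tested 0 rose and 3 fell (Tfr2, Nfe2 and Hemgn), or 10.7% against 1.64% of all genes, with a list median of -0.12 and 9 members above 0. Tfr2, an iron-sensing receptor of red cell precursors and liver, measured 10.23, 10.04, 10.41, 10.36 and 10.51 in control and 8.50, 7.90 and 9.45 in INV16. INV16 replicate 3 was nearest to the controls but below all of them, and the fall was 3.24-fold (log2 difference -1.70, SE 0.26, adjusted p = 0.00648). The probe set may share probes with other transcripts, as its suffix says, and a second set differed by -1.14. Tfr2 lost its call without INV16 replicate 1 (adjusted p = 0.0601). Against MIB control replicates 3 to 5 it differed by -1.61 and did not pass (adjusted p = 0.0938). Hemgn, a nuclear protein of erythroid and stem cells, fell by 0.78 (adjusted p = 0.0395), a call that held in 3 of 11 fits without 1 array. The mean of all 36 erythroid genes on the array was 7.22 to 7.66 in control and 7.20 to 7.28 in INV16. Among 30 platelet genes 3 rose (F13a1, Selp and Alox12) and 2 fell (Nfe2 and Cd9), with list means of 7.25 to 8.16 in control and 7.41 to 7.46 in INV16. Alox12 was dim, and its control mean of 4.94 lay under the filter limit of 5.07, which was applied to the mean over 11 arrays. It measured 4.92, 5.15, 5.02, 4.84 and 4.79 in control and 5.61, 5.65 and 5.25 in INV16. Its rise of 0.56 was a call that held in 4 of 11 fits without 1 array.

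F13a1, the catalytic chain of clotting factor XIII, is also a monocyte gene and measured 7.46, 8.01, 7.32, 8.57 and 6.92 in control and 8.98, 9.55 and 9.27 in INV16. Control replicate 6 was the highest control and still below all INV16 arrays, and the rise was 3.05-fold (log2 difference 1.61, SE 0.30, adjusted p = 0.017). Cd9, a tetraspanin of platelets and stem cells, measured 9.79, 10.05, 9.82, 10.08 and 10.74 in control and 8.89, 9.08 and 9.37 in INV16. It fell by 0.98 log2 (adjusted p = 0.0426), a call lost in 6 of 11 fits without 1 array, and by 0.78 against MIB control replicates 3 to 5 (adjusted p = 0.0838). Of 30 neutrophil genes S100a8 alone was called. The list median was -0.28, with 11 of the 30 above 0, and -0.10 against MIB control replicates 3 to 5. This calcium-binding protein of neutrophils measured 6.97, 8.42, 8.72, 10.28 and 7.34 in control and 5.03, 5.30 and 5.48 in INV16. The controls spread over 3.30 log2 units, all INV16 arrays lay below them, and the difference was -3.08 (SE 0.55, adjusted p = 0.0147). Over 33 neutrophil genes the mean was 8.32 to 9.44 in control and 8.22 to 8.59 in INV16, and the part of this shared level in the fall of S100a8 was not tested. Without INV16 replicate 1 or 2 the calls of F13a1 and S100a8 were lost, at adjusted p up to 0.0848 and 0.102.

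In the lymphoid list 2 of 29 genes rose (Dntt and Gata3) and 1 fell (Nkg7), with a median of 0.06. Dntt, the terminal transferase that adds bases to antigen receptor joints, measured 7.21, 6.72, 7.04, 7.15 and 6.08 in control and 11.09, 10.81 and 7.75 in INV16. INV16 replicates 1 and 2 were higher than any control by more than 3 log2 units, and replicate 3 by 0.53. The mean difference was 3.04 (SE 0.59, adjusted p = 0.0231), and it was 4.11 without INV16 replicate 3. A second probe set gave 2.78, with 9.41, 9.71 and 6.03 in INV16 and 5.11 to 6.02 in control. The call was lost without INV16 replicate 1 or 2 or MIB control replicate 5, at adjusted p up to 0.147. Nkg7, a granule protein of cytotoxic cells, fell by 0.73 (SE 0.13, adjusted p = 0.0151). Ly9, a SLAM family receptor of lymphocytes, measured 5.71, 6.12, 6.24, 6.21 and 5.86 in control and 7.51, 7.11 and 6.54 in INV16, a rise of 1.02 (adjusted p = 0.0211). Without INV16 replicate 1 or 2 the calls of Nkg7 and Ly9 were lost. The lymphoid list as a whole averaged 6.19 to 6.30 in control and 6.26 to 6.41 in INV16.

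In the list of long-term stem cell genes 3 of 25 tested rose, Nrp1, Procr and Esam, and 1 fell, Cd9. The list median was -0.08 and 10 of the 25 were above 0. Its lowest member, the transglutaminase Tgm2, differed by -1.58 and did not pass (adjusted p = 0.0804). Procr, the protein C receptor by which mouse stem cells are sorted, measured 7.93, 7.65, 8.06, 8.50 and 8.38 in control and 10.16, 10.02 and 8.59 in INV16. INV16 replicate 3 was 0.09 above the highest control and the other INV16 arrays far higher. The rise was 2.8-fold (log2 difference 1.48, SE 0.30, adjusted p = 0.0254). Nrp1, a co-receptor for semaphorins and VEGF, measured 7.50, 8.07, 7.62, 7.62 and 6.76 in control and 9.25, 8.88 and 9.25 in INV16. All 3 INV16 arrays were within 0.37 of each other and above all controls, and the rise was 3.06-fold (log2 difference 1.61, SE 0.24, adjusted p = 0.00642). The 3 other Nrp1 probe sets rose by 0.62 to 1.62. Esam, an endothelial adhesion molecule also on stem cells, measured 7.87, 8.04, 8.15, 8.23 and 8.59 in control and 9.65, 9.19 and 8.54 in INV16, and INV16 replicate 3 lay just under MIB control replicate 7. Its rise of 0.95 (adjusted p = 0.049) held in 2 of 11 fits without 1 array. Procr lost its call without INV16 replicate 1 or 2 or MIB control replicate 5, and Nrp1 without INV16 replicate 1 at adjusted p = 0.0574. On INV16 replicate 4 Procr measured 4.28 and Nrp1 5.16, both below all controls.

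Among 48 glycosyltransferases 5 fell (Fut7, Fut8, St3gal2, Csgalnact2 and Chsy1) and 1 rose (Csgalnact1), or 12.5% of the list against 1.64% of all genes, with a median of -0.07. Fut7 adds the last fucose to sialyl Lewis X, the sugar by which leukocytes bind selectins. It measured 8.48, 8.28, 8.53, 8.50 and 8.57 in control and 7.03, 7.31 and 7.32 in INV16. Both groups were tight, the gap between them was 0.95, and the fall was 2.37-fold (log2 difference -1.25, SE 0.12, adjusted p = 0.000606). Selplg, the protein that carries these sugars to P-selectin, measured 11.05, 10.80, 11.07, 11.54 and 11.57 in control and 9.97, 10.13 and 10.50 in INV16, with MIB control replicates 6 and 7 highest. Its fall was 1.01 log2 (SE 0.18, adjusted p = 0.0133), and the difference was -0.78 against MIB control replicates 3 to 5, where it did not pass (adjusted p = 0.0961). Tpst2, which sulfates tyrosines such as those of this protein and was named after its values were seen, measured 8.96, 8.69, 8.88, 8.90 and 8.92 in control and 8.08, 8.46 and 8.05 in INV16, a fall of 0.67 (adjusted p = 0.0147). Selp, P-selectin itself, is a platelet and endothelial protein and rose, with 9.29, 9.57, 9.61, 9.20 and 8.84 in control and 10.10, 10.45 and 10.19 in INV16. The rise was 0.95 (SE 0.16, adjusted p = 0.0124), and its 2 other probe sets differed by 0.47 and 0.71. Selplg and Selp lost their calls without INV16 replicate 1 or 2, at adjusted p up to 0.106 and 0.0667.

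The promoter of Fut7 is shown since this gene had 1 of the smallest p-values and its window holds 1 RUNX core. It is the first of 2 windows of RefSeq on GRCm38.p6, on the + strand at chr2:25422992-25423291, with the core on the opposite strand in capitals, 43 bases before the start site.
Fut7: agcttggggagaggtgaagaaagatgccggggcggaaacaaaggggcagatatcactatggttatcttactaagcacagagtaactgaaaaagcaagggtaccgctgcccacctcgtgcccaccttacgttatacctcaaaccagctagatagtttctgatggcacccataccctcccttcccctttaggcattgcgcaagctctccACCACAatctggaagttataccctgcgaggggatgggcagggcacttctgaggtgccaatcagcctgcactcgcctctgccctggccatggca
The second Fut7 window held 0 such cores. The first windows of Gse1, S1pr3 and Foxred2, the other genes of small p with an entry, held 0 such cores.

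Fut8, which adds the core fucose to N-glycans, measured 11.88, 11.94, 12.08, 11.80 and 11.79 in control and 10.74, 10.64 and 11.19 in INV16. The groups were 0.60 apart, and the fall was 2.06-fold (log2 difference -1.04, SE 0.13, adjusted p = 0.00261). A second Fut8 set fell by 1.16 and the remaining one, at 6.05 in control, differed by 0.15. St3gal2, a sialyltransferase, measured 5.83, 6.09, 6.47, 6.87 and 6.41 in control and 5.23, 5.65 and 5.30 in INV16, a fall of 0.94 (adjusted p = 0.0299) that held in 5 of 11 fits without 1 array. The enzymes of chondroitin sulfate split. Chsy1, which polymerises the chain, measured 11.75, 11.49, 11.39, 11.55 and 11.36 in control and 10.54, 10.65 and 10.65 in INV16. It fell by 0.90 log2 (SE 0.12, adjusted p = 0.00359). Csgalnact2, which starts chains, measured 11.72, 11.56, 11.05, 11.23 and 11.20 in control and 10.23, 10.50 and 10.58 in INV16 and fell by 0.92 (adjusted p = 0.0108), a call lost without INV16 replicate 1. Csgalnact1, with the same reaction, measured 8.0, 8.42, 7.98, 7.92 and 8.09 in control and 9.02, 8.63 and 8.69 in INV16. This rise of 0.70 (adjusted p = 0.0451) held in 3 of 11 fits without 1 array.

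In the list of lipid-sensing and other G protein coupled receptors 6 of 34 genes were called (17.6%, against 1.64% of all genes), 4 up (Ptgir, Hcar2, Ptger2 and S1pr1) and 2 down (S1pr3 and Ffar2), with a median of 0.04. The receptors of sphingosine phosphate, the lipid that draws blood cells into the circulation, went in opposite directions. S1pr3 measured 8.14, 8.28, 8.19, 8.67 and 7.86 in control and 6.65, 6.75 and 6.39 in INV16. It fell 3.09-fold (log2 difference -1.63, SE 0.16, adjusted p = 0.000606), and a second probe set differed by -0.59. S1pr1 measured 5.95, 6.0, 5.85, 6.16 and 6.37 in control and 6.82, 6.90 and 6.65 in INV16, and every INV16 array was above every control. Its rise was 0.72 log2 (SE 0.14, adjusted p = 0.0242) and 0.86 against MIB control replicates 3 to 5, and the call was lost without INV16 replicate 1 or 2 or MIB control replicate 5. On INV16 replicate 4 both were above all controls, at 8.83 and 7.17.

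Ptgir and Ptger2, the receptors of prostacyclin and prostaglandin E2 that raise cyclic AMP, both rose. Ptgir measured 6.43, 6.65, 6.95, 7.07 and 6.40 in control and 8.14, 8.27 and 7.44 in INV16, a rise of 2.37-fold (log2 difference 1.25, SE 0.20, adjusted p = 0.00969). Ptger2 measured 5.82, 6.17, 5.53, 6.04 and 5.53 in control and 6.52, 6.71 and 6.58 in INV16 and rose by 0.78 (adjusted p = 0.0246). Ffar2, a receptor of short-chain fatty acids on myeloid cells, measured 9.80, 10.35, 10.62, 10.26 and 10.54 in control and 8.45, 8.61 and 9.20 in INV16. It fell 2.95-fold (log2 difference -1.56, SE 0.20, adjusted p = 0.00275), with a second set at -1.23. Hcar2, the niacin receptor, measured 5.56, 5.32, 5.38, 5.37 and 5.17 in control and 6.35, 6.71 and 5.70 in INV16, low values with a rise of 0.89 (adjusted p = 0.0365). Adgrg3, an adhesion receptor of granulocytes, measured 10.90, 10.76, 10.78, 10.94 and 11.05 in control and 9.67, 9.32 and 10.05 in INV16. Its fall was 2.3-fold (log2 difference -1.20, SE 0.14, adjusted p = 0.002). Ffar2 and Adgrg3 kept their calls in all 11 fits without 1 array, and Ptgir lost its call without INV16 replicate 1 or 2. Ptger2 lost it without these, INV16 replicate 3 or MIB control replicate 5, and that of Hcar2 held in 5 of 11. Rapgef3, the guanine exchange factor that cyclic AMP activates (also known as Epac1), was lower by all 4 of its tested probe sets. The set that stands for the gene, with the suffix x_at, fell by 0.51 (SE 0.11, adjusted p = 0.0324). Its call held in 5 of 11 fits without 1 array. It was lost with the spike-in term (adjusted p = 0.0823) and against MIB control replicates 3 to 5 (adjusted p = 0.16). The 3 other sets, adjusted over all probe sets, differed by -0.78, -1.36 and -2.20. The last of these measured 7.12 to 7.81 in control and 4.97 to 5.43 in INV16 (adjusted p = 9.1e-05).

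Of 31 cytokines and growth factors 2 were called higher, Il6 and Vegfc, and 0 lower. The list median was 0.08 and 20 of the 31 were above 0, while the lowest member differed by -1.49 without a call. Il6, whose protein was in the medium of every culture, measured 4.79, 5.06, 5.56, 5.02 and 5.61 in control and 6.90, 6.78 and 6.55 in INV16. The lowest INV16 array was 0.94 above the highest control, and the rise was 2.9-fold (log2 difference 1.53, SE 0.20, adjusted p = 0.00359). Vegfc, the growth factor of lymphatic vessels, measured 5.98, 5.60, 5.79, 5.87 and 5.95 in control and 8.13, 7.66 and 6.51 in INV16. INV16 replicate 1 was highest and replicate 3 nearest the controls, and the rise was 3.02-fold (log2 difference 1.59, SE 0.27, adjusted p = 0.0108), with 2 other sets at 1.34 and 1.47. Tlr7, the endosomal sensor of single-stranded RNA, measured 5.92, 5.34, 5.53, 5.48 and 5.72 in control and 6.84, 6.98 and 6.27 in INV16, a rise of 1.10 (SE 0.17, adjusted p = 0.00647). All cultures met a retrovirus. The interferon response list had 0 of 37 genes called, a median of -0.08 and 12 members above 0. Vegfc lost its call without INV16 replicate 1 or 2, and Tlr7 without replicate 1 at adjusted p = 0.0607.

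Growth factor receptors were called in 3 of 40 genes. Il4ra, the interleukin 4 receptor chain that signals through STAT6, measured 8.82, 8.18, 8.76, 9.24 and 8.70 in control and 7.08, 7.49 and 7.63 in INV16. It fell 2.53-fold (log2 difference -1.34, SE 0.20, adjusted p = 0.00647), and 2 other sets differed by -0.41 and -0.31. Pdgfrb fell by 1.10 (SE 0.19, adjusted p = 0.0133), from 7.71 to 8.76 in control to 6.73 to 7.18 in INV16. Met, the receptor of hepatocyte growth factor, measured 7.12, 7.98, 7.82, 7.43 and 6.42 in control and 8.61, 8.41 and 8.63 in INV16. The control arrays ran over 1.56 log2 units, and its rise of 1.19 (SE 0.27, adjusted p = 0.0451) held in 2 of 11 fits without 1 array. In TGF-beta signalling 0 of 18 genes were called higher and 2 lower, Smad3, a transducer of the receptor, and Ski, a repressor that binds it. The list median was -0.14 and 7 of the 18 were above 0, the highest at 1.02 without a call. Smad3 measured 9.63, 9.20, 9.60, 9.31 and 9.58 in control and 8.58, 8.73 and 8.66 in INV16, a fall of 0.80 (SE 0.11, adjusted p = 0.00519). Its 2 other probe sets differed by -0.29 and -0.24. Ski fell by 0.67 (SE 0.14, adjusted p = 0.0281). Without INV16 replicate 1 Smad3 reached an adjusted p of 0.05 and Il4ra 0.0607. Pdgfrb lost its call without INV16 replicate 1 or 2, and Ski without these or MIB control replicate 6.

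Of 24 MAP kinase feedback genes tested 4 rose (Dusp2, Map3k8, Map2k6 and Dusp7), or 16.7% of the list against 1.64% of all genes, and 0 fell, with a median of 0.14. The lowest member, Ier3, an early response gene, differed by -1.05 and did not pass (adjusted p = 0.0749). Dusp2, a nuclear phosphatase that switches off ERK, measured 8.67, 7.98, 8.39, 8.54 and 8.36 in control and 9.55, 9.74 and 8.96 in INV16. It rose 2.04-fold (log2 difference 1.03, SE 0.18, adjusted p = 0.0129). Dusp7, its cytoplasmic relative, measured 7.77, 7.64, 7.39, 7.75 and 7.46 in control and 8.15, 8.29 and 8.19 in INV16, a rise of 0.61 (SE 0.11, adjusted p = 0.0148). Map3k8, a kinase upstream of ERK, measured 5.91, 6.07, 5.91, 6.11 and 5.68 in control and 7.02, 7.40 and 6.28 in INV16. Here INV16 replicates 1 and 2 were higher and replicate 3 was 0.18 above the highest control, with a rise of 0.97 (adjusted p = 0.0276). Map2k6, the activator of p38, rose by 0.77 (adjusted p = 0.0245). All of these lost their calls without INV16 replicate 1 or 2, with adjusted p up to 0.157, as did Map3k8 and Map2k6 without MIB control replicate 5, Map3k8 without replicate 7 and Map2k6 without replicate 6. Mapkapk3, a kinase that p38 activates, is outside that list and went down, with 12.38, 12.12, 12.32, 12.64 and 12.40 in control and 10.95, 11.12 and 11.57 in INV16. Its fall was 2.23-fold (log2 difference -1.16, SE 0.14, adjusted p = 0.00261), a second set gave -1.30, and the call held in all 11 fits without 1 array.

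Further called genes of signalling went in both directions. Gem, a small GTPase that limits calcium channels, measured 9.05, 8.81, 8.97, 8.27 and 8.96 in control and 6.64, 6.95 and 5.13 in INV16. INV16 replicate 3 was lowest, all INV16 arrays were below the controls, and the fall was 5.95-fold (log2 difference -2.57, SE 0.35, adjusted p = 0.00458). In the list of 54 small GTPases and their regulators Gem and Rapgef3 were called. Called genes of this kind outside the list include Rala, a RAS-like GTPase, and Trio, an exchange factor, which were chosen after their values were seen. Rala rose by 0.66 (adjusted p = 0.0442) and Trio by 0.67 (adjusted p = 0.0198), with calls that held in 4 and 8 of 11 fits without 1 array. Sh2d5, an SH2 domain protein, had the smallest p of all genes and measured 9.0, 8.75, 8.75, 8.84 and 8.77 in control and 7.42, 7.77 and 7.60 in INV16. The 5 controls lay within 0.25 of each other, and the fall was 2.34-fold (log2 difference -1.22, SE 0.11, adjusted p = 4e-04), with a second set at -0.85. Chn2, a GTPase-activating protein of Rac, fell by 0.85 (SE 0.13, adjusted p = 0.00779). Csk, the kinase that holds Src kinases inactive, was named after its values were seen and measured 9.23, 9.16, 9.19, 9.57 and 9.76 in control and 8.14, 8.55 and 8.55 in INV16. It fell by 0.97 (adjusted p = 0.00969). Dab2, an adaptor of endocytosis, went up with 6.08, 6.96, 6.41, 6.67 and 6.37 in control and 7.71, 8.41 and 7.61 in INV16. Its rise was 2.66-fold (log2 difference 1.41, SE 0.22, adjusted p = 0.00831), while a second set differed by 0.13. Chn2 and Csk lost their calls without INV16 replicate 1.

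Of 70 chromatin regulators 3 rose (Hdac9, Kdm5b and Chd7) and 3 fell (Gse1, Med7 and Mn1), or 8.57% of the list, with a median of 0.01. Gse1, a partner of a histone demethylase complex, measured 9.14, 9.19, 8.95, 9.07 and 9.27 in control and 7.93, 7.62 and 7.59 in INV16. The gap between the groups was 1.02, and the fall was 2.65-fold (log2 difference -1.41, SE 0.13, adjusted p = 0.000413), with 2 other sets at -1.06 and -0.25. Med7, a subunit of the Mediator of RNA polymerase II, measured 10.21, 10.21, 10.12, 9.96 and 9.97 in control and 9.09, 9.35 and 8.94 in INV16. Its fall was 0.97 log2 (SE 0.14, adjusted p = 0.00642). Mn1, a cofactor often expressed highly in leukaemia with this inversion, measured 6.69, 6.27, 6.14, 6.16 and 6.18 in control and 5.42, 5.34 and 5.64 in INV16. It was lower in INV16 by 0.82 (SE 0.13, adjusted p = 0.00969). Med7 lost its call without INV16 replicate 1, and Mn1 without replicate 1 or 2.

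Hdac9, a class IIa histone deacetylase, measured 5.47, 6.27, 6.26, 5.99 and 5.85 in control and 7.85, 7.35 and 6.63 in INV16. Its INV16 values spread over 1.21, all above the controls, and the rise was 2.48-fold (log2 difference 1.31, SE 0.24, adjusted p = 0.0163). Chd7, a remodeller that can bind RUNX1 and the fusion, measured 6.87, 7.01, 6.77, 6.96 and 6.78 in control and 7.38, 7.69 and 7.82 in INV16. It rose by 0.75 log2 (SE 0.12, adjusted p = 0.00995), with a second set at 0.21, and lost the call without INV16 replicate 2 at adjusted p = 0.0529. Kdm5b, a demethylase of lysine 4 of histone H3, rose by 0.83 (adjusted p = 0.0221), while a second set differed by -0.02. Kdm5b and Hdac9 lost their calls without INV16 replicate 1 or 2, and Kdm5b also without INV16 replicate 3 or MIB control replicate 5. Zfp608, a zinc finger protein, measured 8.78, 8.23, 8.22, 8.13 and 8.17 in control and 9.51, 9.37 and 9.22 in INV16, and its rise of 2.09-fold (log2 difference 1.06, SE 0.15, adjusted p = 0.0048) held in all 11 fits without 1 array. Zfp36l1, which speeds the decay of AU-rich RNA, rose by 0.92 (SE 0.15, adjusted p = 0.0108), a call lost without INV16 replicate 1 or 2.

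Survival genes of the BCL2 family changed in opposite ways. Bcl2, which holds the mitochondrial pathway of cell death in check, measured 10.53, 10.61, 10.58, 10.10 and 10.17 in control and 9.80, 9.49 and 9.81 in INV16. Every INV16 array lay below every control, and the fall was 0.70 log2 (SE 0.14, adjusted p = 0.0254). All 4 other Bcl2 probe sets were lower, by -0.26 to -1.19, and the last of these, with 8.10 to 8.42 in control and 6.91 to 7.10 in INV16, passed over all probe sets (adjusted p = 0.000376). Bcl2l11, which encodes the death activator BIM, measured 10.11, 9.09, 9.72, 9.14 and 9.29 in control and 10.61, 10.81 and 10.49 in INV16. It rose 2.24-fold (log2 difference 1.16, SE 0.20, adjusted p = 0.013), and 3 other sets differed by 0.32 to 0.99. These were the only genes called of 31 in the apoptosis list, and 0 of 22 p53 response genes were called. Both lost their calls without INV16 replicate 1 or 2, and Bcl2 also without MIB control replicate 5.

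In the cell cycle, 3 of 29 regulators of G1 fell (Ccnd1, E2f2 and E2f8) and 0 rose. Ccnd1, cyclin D1, measured 9.76, 8.74, 8.59, 8.12 and 8.55 in control and 7.17, 7.49 and 7.54 in INV16. MIB control replicate 3 was the highest array, and the fall was 2.54-fold (log2 difference -1.35, SE 0.27, adjusted p = 0.0254), with 2 other sets at -1.25 and -0.73. E2f8, a repressor of the E2F family, fell by 0.55 (SE 0.10, adjusted p = 0.0133), while a second set differed by 0.43. E2f2, an activator, fell by 0.56 (adjusted p = 0.0361) and kept its call in 1 of 11 fits without 1 array. Of 40 genes of S phase 0 were called, with 4 above 0 and a median of -0.14, and of 43 genes of mitosis 0 were called, with a median of -0.05. DNA repair had 2 of 51 called, among them Palb2, which brings BRCA2 to breaks, at -0.57 (adjusted p = 0.0275), and 15 of the 51 genes were above 0. In these lists 9 S phase, 3 mitosis and 11 repair genes had an unadjusted p under 0.05. The calls of Ccnd1 and E2f8 were lost without INV16 replicate 1 or 2, and that of Ccnd1 also without MIB control replicate 5. Palb2 kept its call in 7 of 11 such fits.

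Genes of the cytoskeleton were called in 4 of 49, with Dab2 higher and Tuba8, Tagln2 and Pstpip1 lower. Tuba8, an alpha tubulin, measured 9.28, 9.41, 9.46, 9.57 and 10.21 in control and 8.12, 7.75 and 8.84 in INV16, a fall of 2.56-fold (log2 difference -1.35, SE 0.24, adjusted p = 0.0133). Tagln2, an actin-binding protein, fell by 0.78 (adjusted p = 0.021) and Pstpip1, an adaptor that links the actin skeleton to inflammation, by 0.67 (adjusted p = 0.0359). Raph1 and Cep135 are outside that list. Raph1, a lamellipodin that promotes protrusions, measured 6.82, 7.62, 7.26, 7.28 and 6.90 in control and 8.52, 8.41 and 7.84 in INV16. It rose 2.12-fold (log2 difference 1.08, SE 0.19, adjusted p = 0.0147), with 2 other sets at 0.90 and 1.28. Cep135, a centriole protein, measured 5.70, 5.40, 5.52, 5.33 and 4.99 in control and 6.71, 6.36 and 6.65 in INV16, and its rise was 2.28-fold (log2 difference 1.19, SE 0.19, adjusted p = 0.0103). Piezo1, a channel that opens on stretch, was named after its values were seen, measured 10.19, 9.98, 10.40, 10.37 and 10.30 in control and 9.49, 9.55 and 9.62 in INV16 and fell by 0.69 (adjusted p = 0.00779). Pstpip1 kept its call in 3 of 11 fits without 1 array. Tuba8, Tagln2 and Raph1 lost theirs without INV16 replicate 1 or 2, and Cep135 and Piezo1 without replicate 1.

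Some of the steadiest falls were in genes with no list here. Spns3, a member of the spinster family of transporters, measured 8.96, 8.74, 9.08, 9.28 and 9.23 in control and 8.05, 8.08 and 8.15 in INV16. It fell by 0.97 log2 (SE 0.12, adjusted p = 0.00293). Foxred2, an enzyme of the endoplasmic reticulum that helps to clear misfolded proteins, measured 8.67, 8.31, 8.62, 8.50 and 8.42 in control and 7.58, 7.63 and 7.57 in INV16. The fall was 0.91 (SE 0.10, adjusted p = 0.00105). Btnl9, of the butyrophilin-like family, measured 8.52, 8.89, 8.57, 8.43 and 8.46 in control and 7.46, 6.76 and 7.58 in INV16. This was a fall of 2.47-fold (log2 difference -1.31, SE 0.17, adjusted p = 0.00293). In all of these the INV16 arrays lay below every control and the call held in all 11 fits without 1 array. The same was true of Acot11, an acyl-CoA thioesterase (-0.89), of Rffl, a ubiquitin ligase (-0.93), and of the predicted gene Gm3924 (-1.32). On INV16 replicate 4 Acot11 and Rffl lay above all controls, at 8.03 and 9.06. Cyp11a1, the enzyme that starts steroid synthesis from cholesterol, measured 8.35, 7.88, 7.92, 8.16 and 8.65 in control and 6.64, 7.07 and 7.23 in INV16. It fell 2.32-fold (log2 difference -1.21, SE 0.19, adjusted p = 0.00775), while a second set differed by 0.08, and it lost the call without INV16 replicate 1.

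Among the other large rises, Ammecr1 measured 7.27, 6.24, 6.68, 6.64 and 6.48 in control and 7.86, 7.90 and 8.26 in INV16, a rise of 2.54-fold (log2 difference 1.34, SE 0.24, adjusted p = 0.0134). Evi5, an oncogene-linked Rab GTPase-activating protein, was higher by 1.22 (adjusted p = 0.0407), and Gask1b, a Golgi protein, by 1.04 (adjusted p = 0.0211). Enc1, an actin-binding protein, rose by 0.98 (adjusted p = 0.0266) and Cav2, a caveolin, by 1.0 (adjusted p = 0.0472). Other large falls were those of Tmem65 (-1.11, adjusted p = 0.0266), Abca4, a retinoid transporter (-1.04, adjusted p = 0.0275), and Lpcat2, which makes platelet-activating factor (-0.98, adjusted p = 0.0154). The INV16 and control arrays did not overlap in 207 of the 211 called genes. For the genes of this paragraph this was a condition of the rule that named them. All genes of this paragraph lost the call without INV16 replicate 1, and all but Lpcat2 also without replicate 2. Gask1b, Tmem65, Abca4, Evi5 and Cav2 lost it without MIB control replicate 5 as well, and Enc1 without MIB control replicate 7.

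**Figure D5:**
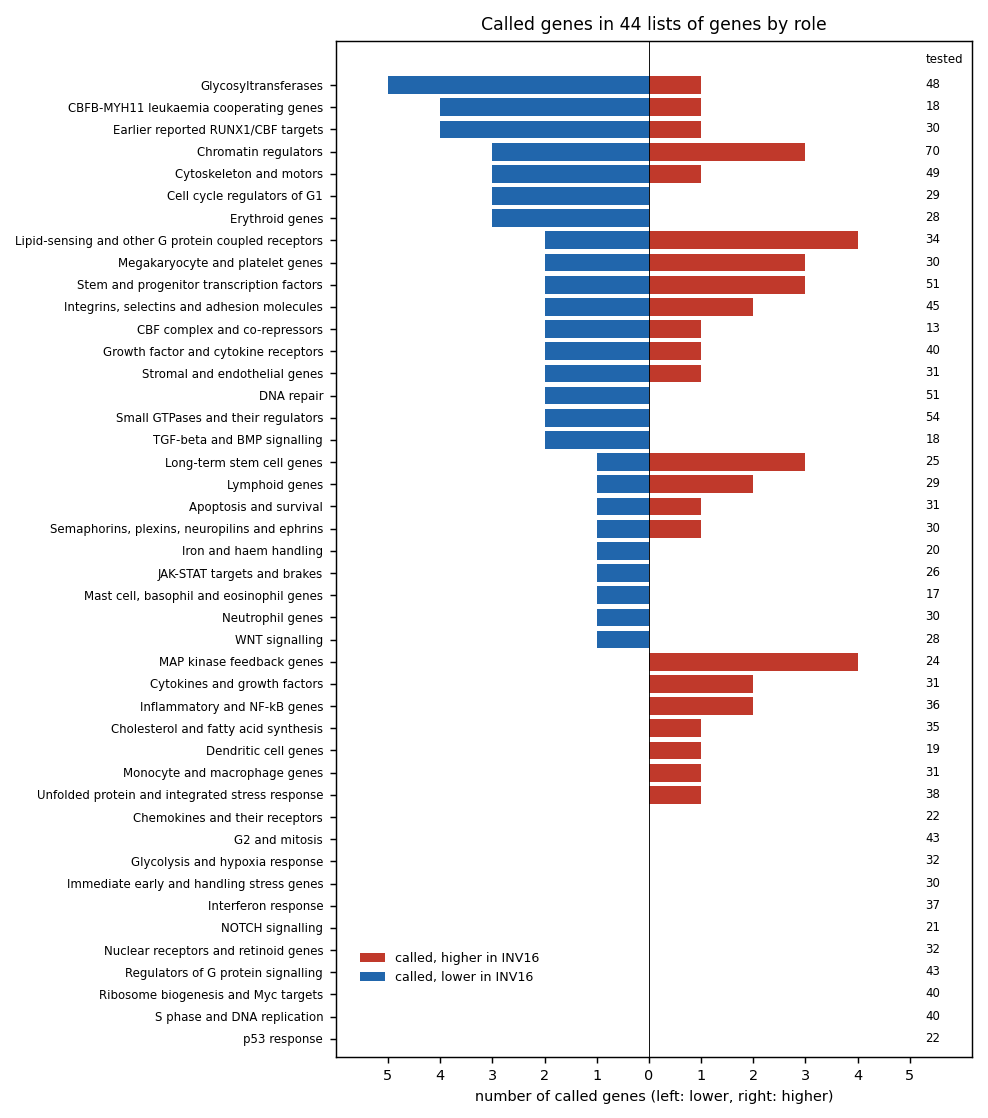
Bars give the number of called genes in each of 44 lists of genes by role, higher in INV16 to the right and lower to the left, with the number tested at the right edge. Glycosyltransferases held the most called lower genes, 5 of 48, and 11 lists held none in either direction.

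Beyond these, 142 of the 211 called genes belonged to none of the 44 lists, and 127 to neither a list nor 1 of 38 gene families taken by symbol. The largest families changed at about the rate of all genes. Solute carriers had 4 of 237 called (1.69%) and zinc finger genes of the Zfp and Zbtb symbols 5 of 342 (1.46%), against 1.64% overall. Some smaller families lay higher, each on 1 or 2 called genes. These included 18 dual specificity phosphatases and 9 S100 proteins (11.1% each) and 37 MAP kinase cascade genes (5.41%). Others were 41 interleukins and receptors (4.88%) and 59 CD antigens (3.39%). No gene was called among 76 mitochondrial ribosomal proteins, 33 complex I subunits, 38 proteasome subunits, 48 DEAD and DEAH helicases, 47 initiation factors and 31 aminoacyl tRNA synthetases. Their medians were -0.14 to -0.07, and quantile normalisation moved the median of all genes by 0.02. Lists with 0 called genes and a median between -0.12 and 0.06 were ribosome biogenesis, p53 response, interferon response, glycolysis, NOTCH signalling, chemokines, regulators of G protein signalling, nuclear receptors, mitosis and immediate early genes. Of 15 Hox genes 0 were called and 12 lay above 0, with values between -0.42 and 0.37. The 104 called genes with further probe sets had 167 of them, of which 142 moved in the same direction, 32 passed in that direction and 0 passed in the opposite one.

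Genes studied as partners of this fusion in leukaemia had 5 of 18 called (27.8%), with Chd7 higher and Runx3, Cebpa, Mn1 and Bcl2 lower, a median of -0.15 and 3 of 18 above 0. Of 30 genes reported earlier as targets of RUNX1 or core binding factor 5 were called (16.7%), with Dntt higher and Runx3, Nfe2, Cebpa and Bcl2 lower. The median was -0.08 and 15 were above 0. The lists share Runx3, Cebpa and Bcl2 and were written with earlier results of these data known, so that their counts describe these arrays and are no independent evidence.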

How the data were processed

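Sorted mouse progenitors were profiled with 1 array per sample. The deposited log2 values, 45101 probe sets on an Affymetrix mouse genome array, had been summarised and scaled by the authors with a method not given in the sources used here. That the scale is log2 was inferred from their range. They carry no measure of background. The array medians differed by less than 0.2, and values were used as deposited. Per the labels' protocols RNA went through 2 cycles of cDNA amplification before biotin labelling. The design text speaks of whole transcriptome arrays.

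The platform annotation gave the gene names: 34945 probe sets had 1 gene, 932 several and 9160 none, and 64 were controls. Only those with 1 gene were used, and 34741 of them matched the RefSeq gene table. A gene was tested through its probe set of highest mean over 11 arrays, if above the 40th percentile (5.07). Suffixes s_at and x_at mark probe sets that may bind several transcripts, among them those of Dntt, Selp, Tagln2, S100a8, Procr and Clec4d. The filter used 11 arrays so that INV16 replicate 4 chose no gene.

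limma 3.58.1 in R 4.3.3 fitted a mean per group (INV16, MIB control and ACD mutant) to 11 arrays (8 residual and 5.01 prior degrees of freedom), with two-sided tests and Benjamini-Hochberg adjustment over 12897 genes. The script was tested on simulated data. Groups came from the sample titles, and columns of samples left unused numbered 0. The array number limits the precision. Named genes are the 25 largest called rises and falls without overlap, the genes called in the 11-array fit, with the spike-in term and against MIB control replicates 3 to 5, up to 4 called genes per list and the genes of the fusion and the sort. The comparison, the lists and the rule were chosen with earlier results of these data known. Alternatives changed the arrays, scaling, filter, probe sets, prior and weights. Ly6a was not analysed here, and some genes are not reported here.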

Additional observations from a re-analysis of the deposited data

Results flagged for a closer look

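Of 108 named genes checked over the 5 MIB control arrays, 5 had 1 array far from the other 4 (gap over the group's whole range above 0.71). Chance alone flags about 1 group in 20. MIB control replicate 3 was that array for Flt3, at 9.34 against 8.34 to 8.57, for Zfp608, at 8.78 against 8.13 to 8.23, and for Mn1, at 6.69 against 6.14 to 6.27. MIB control replicate 7 was it for Clec4d, a C-type lectin of myeloid cells, at 10.39 against 10.98 to 11.11, and MIB control replicate 4 for Map2k6, at 6.77 against 6.14 to 6.31.

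INV16 replicate 4, which did not enter the main comparison, had high levels of genes of other cell types. Its mean over 27 genes of mast cells, basophils and eosinophils was 9.14, against 6.64 to 7.24 in MIB control. Its mean over 36 erythroid genes was 8.46, against 7.22 to 7.66.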

How the results depend on the processing

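No paired analysis was possible because INV16 replicates 1 to 3 and MIB control replicates 3 to 7 share only the number 3. The 211 calls (75 higher, 136 lower) were 93 (27 and 66) in a fit to the 8 arrays alone, 20 (1 and 19) with INV16 replicate 4 included and 129 (45 and 84) with the spike-in split as a term. They were 30 (7 and 23) with MIB control replicates 3 to 5 only and 1625 (641 and 984) with array weights. Testing each probe set gave 147 higher of 312. Leaving out 1 array gave 27 to 326 calls, 5 to 133 higher and 22 to 233 lower. The 30 calls against MIB control replicates 3 to 5 were 129 (45 and 84) with 4 group means over 11 arrays, by construction the same fit as the spike-in term, and ranged over 2 to 169, 0 to 89 higher and 1 to 80 lower when 1 array was left out. Quantile normalisation (214), no filter (205), the 60th percentile (200), a filter from 12 arrays (219), mean probe sets (212) and a trended robust prior (203) stayed within 1.5 times of 211. Of 103 called genes among those named, 61 kept the call in the 8 arrays, 68 with the spike-in term, 28 with MIB control replicates 3 to 5 only, 93 after quantile normalisation, 91 with mean probe sets, 14 with INV16 replicate 4 included, 21 without INV16 replicate 1 and 37 without replicate 2. Among these 103 the only reversals came with INV16 replicate 4 included: Tcf4 (-0.78), Clec4d (-0.55), Selp (-0.70) and Rab44 (0.27). Bcl6, outside the 103 and named after its values were seen, also turned in that fit (-0.11). Where the construction does not show it, the cause was not tested. Without a measure of background, it is not known how far dim genes such as Hcar2, Gata3, Il6 and Alox12 stand above it.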
